A study of Mus musculus with 12 samples.

Results

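Mouse embryonic fibroblasts (MEFs), connective tissue cells grown out of embryos, were compared after 5 days in the chemical combination 6TCF and on day 0 of the same arm. The comparison holds 4 of the 12 arrays of the series. They were chosen by sample title, 2 arrays labelled 6TCF day 5 and 2 labelled 6TCF day 0. Both groups were MEFs plated in DMEM with 10% fetal bovine serum and moved a day later into a medium with 15% serum and basic fibroblast growth factor. The chemicals that make up 6TCF are not named in the labels or files used. Day 0 arrays carry the 6TCF label too, and whether the cells had met the chemicals by then is not said. No array is labelled as an untreated culture at day 5, so time in culture and the chemicals cannot be told apart. The labels do not say whether the paired arrays of a group come from separate embryos or cultures. The p-values therefore rest on a spread between paired arrays, estimated over all 6 groups of the series, that may be technical. The other arrays are 6TCF day 10 and the 3 time points of a second combination, SGCF.

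Fibroblasts build and remodel collagenous matrix. When TGF-beta, stiff surfaces or serum act on them, they assemble actin stress fibres through the transcription factors SRF and YAP/TEAD and cross-link the matrix they lay down, a state called the myofibroblast. Wnt ligands act through beta-catenin and TCF/LEF factors and induce their own inhibitors, BMPs act through SMADs and the Id genes, and cyclic AMP acts through CREB. These are the pathways by which the changed genes are grouped here.

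Levels are given as log2(intensity + 16) after quantile normalization over the 12 arrays, and changes as 6TCF day 5 minus 6TCF day 0 with the standard error (SE) of the limma fit. A gene is called where limma's adjusted p (Benjamini-Hochberg over 10674 genes) is under 0.05. Array medians of the deposited intensity were 102.4 and 136.2 at day 5, against 131.3 and 140.6 at day 0. Across genes, the paired arrays correlated at r = 0.9912 at day 5 and 0.9965 at day 0, and arrays of different days at 0.9489 to 0.9522 (genes are not independent of each other). On the log2 scale, the 3' control probe set for actin exceeded the 5' one by 0.76 and 0.88 at day 5, against 0.30 and 0.39 at day 0, while for Gapdh the excess was 0.59 and 0.40 against 0.34 and 0.44. The actin excess, which grows when transcripts lose their 5' ends, thus moved with the comparison, and its part in the results was not tested. The arrays carried the defining fibroblast genes at high level on both days. Col1a2, a chain of type I collagen, read 13.66 and 13.75 at day 5, against 13.96 and 13.93 at day 0 (log2 change -0.24 ± 0.11, adjusted p = 0.14). Vim, the intermediate filament vimentin, read 13.82 and 13.70, against 13.94 and 13.94 (adjusted p = 0.42).

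By day 5, 1617 genes were called higher and 1341 lower, which is 27.7% of the genes tested (15.1% higher and 12.6% lower). A change of at least 2-fold was called for 563 higher genes (5.27%) and 275 lower genes (2.58%), together 7.85%, of at least 4-fold for 155 and 48, and of at least 8-fold for 42 and 7. The arrays of the days did not overlap for 65.9% of the genes tested, called or not. The median change over all genes was 0.00, with quartiles of -0.24 and 0.24. Leaving out the first or the second array of day 0 gave 1852 or 1759 called genes, while the count changed at least 2-fold stayed at 814 to 876 when any 1 of the 4 arrays was left out. On unscaled values the median of all genes was -0.21, and 29.8% of the calls were higher, against 54.7% after quantile normalization. List counts below stand beside these background shares as descriptions, because the lists were chosen with earlier results of these data known. The unscaled median or counts are given for a list whose median turns sign or whose majority of calls turns on unscaled values.

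**Figure D1:**
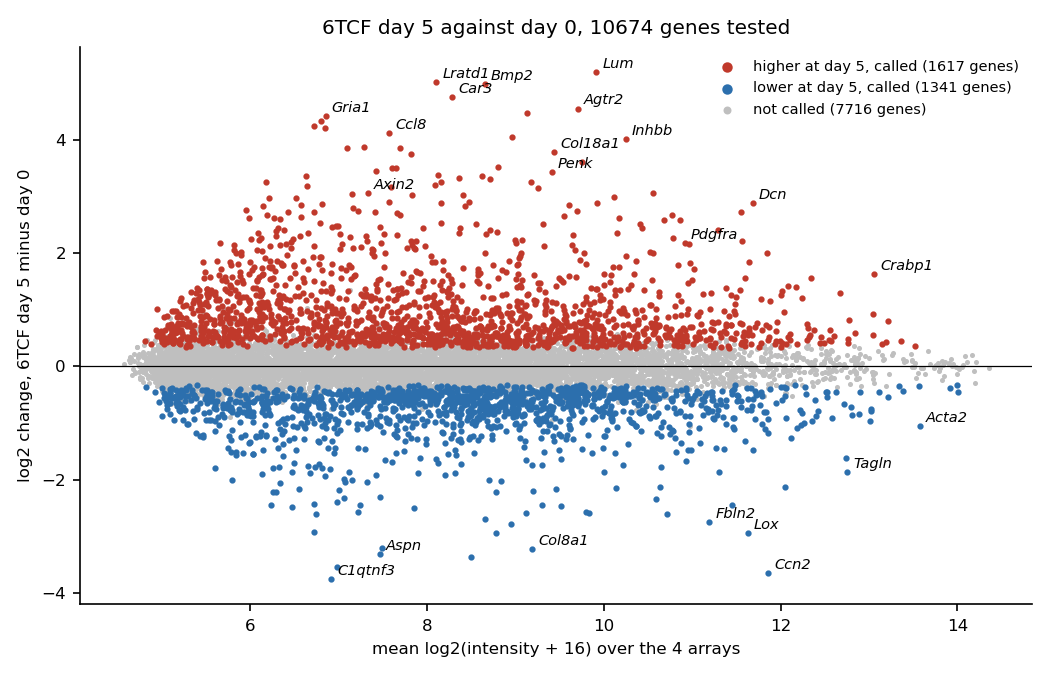
Log2 change between 6TCF day 5 and day 0 (vertical axis) against the mean log2(intensity + 16) over the 4 arrays (horizontal axis) for the 10674 genes tested. Called genes are red (1617 higher) or blue (1341 lower), grey genes are not called, and the tail of large rises is longer than the tail of large falls.

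The largest rise was that of Lum, lumican, a small proteoglycan that binds collagen fibrils. It read 12.53 and 12.50 at day 5, against 7.48 and 7.14 at day 0, a 36.8-fold rise (log2 change 5.20 ± 0.15, adjusted p = 1.58e-09). Lratd1, a gene with an LRAT-like domain, read 10.48 and 10.76, against 5.63 and 5.55 (5.03 ± 0.13, adjusted p = 7.65e-10). Bmp2, a secreted bone morphogenetic protein, read 11.27 and 11.03, against 6.16 and 6.15 (5.00 ± 0.26, adjusted p = 6.42e-08). Car3, a carbonic anhydrase best known from muscle and fat, read 10.73 and 10.60, against 6.00 and 5.81 (4.76 ± 0.16, adjusted p = 4.05e-09). For these genes the paired arrays of a day stood within 0.34 of each other, far less than the distance between the days.

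Agtr2, the type 2 angiotensin receptor of fetal mesenchyme, read 11.64 and 12.33 at day 5, against 7.63 and 7.22 at day 0 (4.56 ± 0.22, adjusted p = 4.17e-08). Slc14a1, a urea transporter, read 11.56 and 11.20, against 6.81 and 6.96 (4.49 ± 0.25, adjusted p = 1.29e-07). Inhbb, the activin and inhibin beta-B subunit, read 12.21 and 12.32, against 8.25 and 8.22 (4.03 ± 0.17, adjusted p = 1.45e-08). Mmp3, the matrix protease stromelysin-1, read 11.14 and 10.86, against 6.99 and 6.89 (4.06 ± 0.16, adjusted p = 7.94e-09), and Ccl8, a monocyte-attracting chemokine, read 9.61 and 9.67, against 5.42 and 5.60 (4.13 ± 0.22, adjusted p = 8.95e-08). Several others encode proteins best known from neurons. Gria1, an AMPA glutamate receptor subunit, rose 21.6-fold, Amph, the endocytic protein amphiphysin, 20.2-fold, Cadps, a factor for dense-core vesicle release, 19.1-fold, and Nefl, the light neurofilament, 14.8-fold. Tnfrsf19, a TNF receptor family member, rose 18.7-fold and Prkcb, a protein kinase C, 14.6-fold. Gria1, Amph, Cadps, Tnfrsf19 and Prkcb lay under the filter level of 5.25 on both day 0 arrays, so the size of their change depends on the pseudocount and may be understated. The same limit holds for other genes named here whose mean lay under that level on their dimmer day, namely Adamts15, Alb, Cyp26a1, Foxa2, Kera, Ppargc1a, Ptger2, Scg2, Slc7a8, Sox2, Sp5, Tfap2b and Wif1 at day 0, and C1qa, C1qb, C1qtnf3, Mpeg1 and Tll1 at day 5.

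C1qtnf3, a secreted C1q and TNF related protein of cartilage and fat, had the largest fitted fall. It read 4.82 and 5.27 at day 5, against 8.60 and 9.00 at day 0 (-3.76 ± 0.27, adjusted p = 9.05e-07), where the day 5 mean lay under the filter level and the size depends on the pseudocount. Ccn2, connective tissue growth factor, was among the brightest genes at day 0 and fell 12.6-fold, with 10.17 and 9.91 at day 5 against 13.62 and 13.76 at day 0 (-3.65 ± 0.13, adjusted p = 4.24e-09). Tll1, a procollagen protease of the BMP1 family, read 5.12 and 5.31, against 8.61 and 8.91 (-3.54 ± 0.18, adjusted p = 5.53e-08). Lox, lysyl oxidase, which cross-links collagen and elastin, read 10.18 and 10.13, against 13.06 and 13.15 (-2.95 ± 0.18, adjusted p = 2.41e-07). Other matrix genes were among these falls. Col8a1 fell 9.35-fold, Aspn, the proteoglycan asporin, 9.96-fold, Fbln2 6.73-fold, Col11a1 6.52-fold and Fbln5 6.13-fold. Aspn was uneven at day 5, with 5.00 and 6.62, and both values lay under the 9.11 and 9.14 of day 0.

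Of the other large falls, Acta1, skeletal muscle actin, read 7.18 and 7.44 at day 5, against 10.21 and 10.31 at day 0 (-2.95 ± 0.38, adjusted p = 9.99e-05). Eno3, muscle enolase, fell 6.91-fold, and Tnfrsf11b, osteoprotegerin, the decoy receptor that blocks osteoclast formation, fell 7.57-fold, with 4.78 and 5.74 against 8.17 and 8.20. Tnfsf11, RANKL, the ligand that osteoprotegerin captures, moved the other way, with 9.01 and 9.05 at day 5 against 6.98 and 7.18 at day 0 (1.95 ± 0.13, adjusted p = 6.12e-07). Ctss, cathepsin S, fell 9.22-fold. Ctla2a and Ctla2b, near-identical inhibitors of cathepsins, fell 10.3-fold and 6.08-fold, and their probe sets may share signal. All of these leading genes were chosen by the size of their change and by separation of their arrays, so neither is evidence about them.

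**Figure D2:**
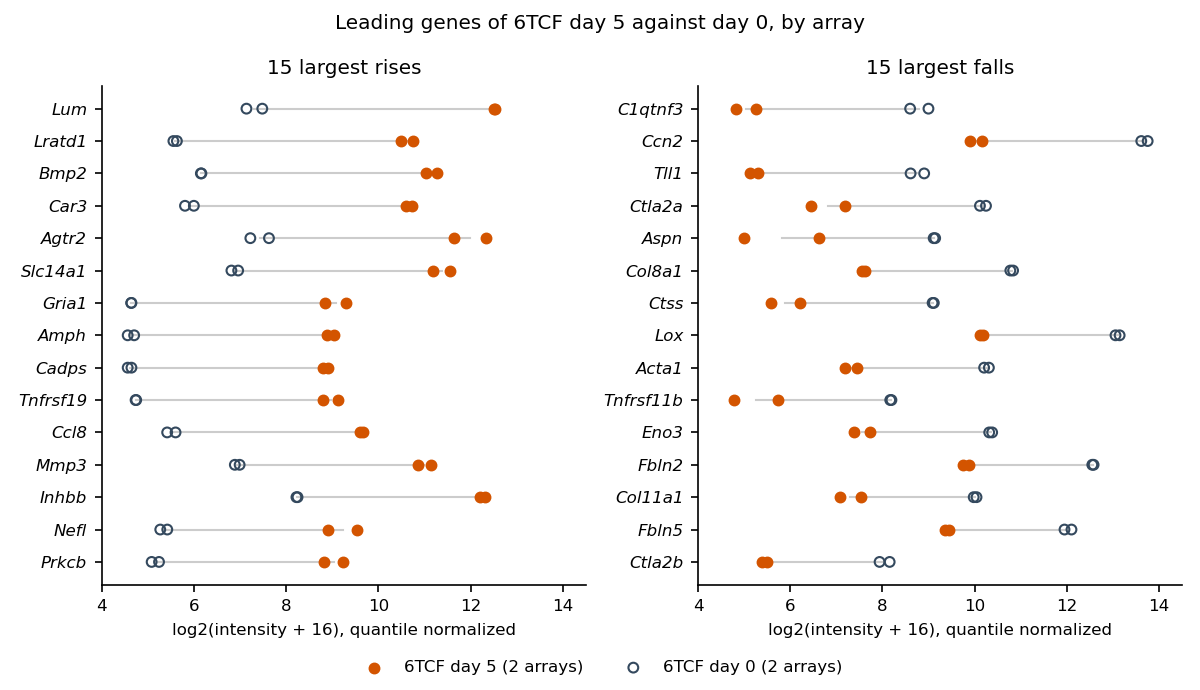
Log2(intensity + 16) of the 15 largest rises and 15 largest falls on each of the 4 arrays (filled, 6TCF day 5, and open, 6TCF day 0), with a line joining the means of the days. Lum stands at 12.53 and 12.50 at day 5 against 7.48 and 7.14 at day 0, and Aspn and Tnfrsf11b show the widest gaps between the day 5 arrays among the falls.

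Contractile and cytoskeletal genes, many of them targets of SRF, fell as a group. Of 29 tested, 25 were lower and the other 4 were not called, and 15 fell at least 2-fold. Their median change was -1.01, against 0.00 over all genes. Srf itself, the factor that binds the CArG box, read 7.44 and 7.78 at day 5, against 8.45 and 8.48 at day 0 (-0.85 ± 0.14, adjusted p = 0.0007). Because several of these genes moved together, promoter windows were searched for the CArG box on both strands. A window runs from 250 bases before a gene's start to 50 after it, in RefSeq, assembly GRCm38.p6, and 25 of the 29 genes had one or more. The CArG box lay in 5 of their 30 windows (16.7%), against 1.44% of the 10990 windows of genes tested and 1.63% of all 32851 windows. It lay in 4.93% of the windows of genes lowered at least 2-fold and in 1.81% of those of genes raised at least 2-fold. The lowered genes include members of the contractile list, so these shares are not separate. These counts describe letters in a window and not binding, and the contractile list was itself drawn up as SRF targets. The windows of Srf, Vcl and Myl9 are shown because they hold the box in genes that fell. They are written 5' to 3' on the gene's strand with the CArG box in capitals, and lie at chr17:46556113-46556412 on the minus strand for Srf, with boxes starting 82 and 62 bases before the gene's start, at chr14:20929148-20929447 on the plus strand for Vcl, 227 bases before, and at chr2:156775214-156775513 on the plus strand for Myl9, 161 bases before.
Srf: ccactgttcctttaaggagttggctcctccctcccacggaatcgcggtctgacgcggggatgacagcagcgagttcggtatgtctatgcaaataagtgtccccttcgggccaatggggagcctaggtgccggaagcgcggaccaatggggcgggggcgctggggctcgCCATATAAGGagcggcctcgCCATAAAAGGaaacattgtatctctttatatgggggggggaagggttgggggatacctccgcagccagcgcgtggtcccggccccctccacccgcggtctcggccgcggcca
Vcl: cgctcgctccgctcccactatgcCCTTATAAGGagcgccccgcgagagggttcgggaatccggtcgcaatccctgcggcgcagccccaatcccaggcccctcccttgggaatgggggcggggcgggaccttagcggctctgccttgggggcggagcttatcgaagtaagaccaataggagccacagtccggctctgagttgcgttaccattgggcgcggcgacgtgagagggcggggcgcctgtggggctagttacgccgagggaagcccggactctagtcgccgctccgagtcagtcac
Myl9: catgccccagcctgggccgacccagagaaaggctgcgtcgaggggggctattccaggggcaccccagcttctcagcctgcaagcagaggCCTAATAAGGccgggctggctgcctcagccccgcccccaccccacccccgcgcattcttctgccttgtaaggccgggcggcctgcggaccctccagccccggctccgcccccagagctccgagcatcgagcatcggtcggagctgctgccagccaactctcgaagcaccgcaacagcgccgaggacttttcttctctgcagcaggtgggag

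Vcl, vinculin, which couples actin to adhesion sites, read 11.33 and 11.20 at day 5, against 12.44 and 12.46 at day 0 (-1.18 ± 0.19, adjusted p = 0.000562). Myl9, a regulatory myosin light chain, read 11.01 and 10.87, against 12.30 and 12.21 (-1.31 ± 0.15, adjusted p = 4.24e-05). Tagln, the actin-binding protein SM22, read 11.93 and 11.70, against 13.72 and 13.65 (-1.87 ± 0.13, adjusted p = 6.27e-07). Both day 5 arrays lay under both day 0 arrays for each of the 3 genes. Such separation, in either direction, held for 65.9% of all genes tested. Acta2, smooth muscle actin, the marker most used for myofibroblasts, was still bright at day 5, with 13.14 and 12.95 against 14.11 and 14.09 at day 0, a 2.08-fold fall (-1.06 ± 0.13, adjusted p = 5.53e-05). Cnn1, calponin, had the largest fall of the list (4.52-fold) and Actg2, enteric smooth muscle actin, fell 3.35-fold. Pdlim7 fell 2.76-fold, Csrp1 2.33-fold and Cnn2, a calponin whose promoter window also holds the box, 2.16-fold. Mylk, myosin light chain kinase, was not called, with 8.96 and 9.08 at day 5 against 9.05 and 9.07 at day 0 (adjusted p = 0.886). Myh11, smooth muscle myosin, was not called either (-0.18 ± 0.28, adjusted p = 0.69).

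YAP and TEAD targets, which overlap with the contractile program in fibroblasts, followed the same direction, with 15 of 20 lower and 2 higher and a median of -1.12. Beside Ccn2, the falls included Ankrd1, a stretch-responsive ankyrin repeat protein, which read 8.31 and 8.27 at day 5, against 10.60 and 10.90 at day 0 (-2.46 ± 0.17, adjusted p = 5.21e-07). F3, tissue factor, fell 4.42-fold, Gadd45b 3.31-fold, Amotl2, which holds YAP at junctions, 3.09-fold, and Axl, a receptor tyrosine kinase, 2.90-fold. Tgfb2 was one of the rises. It read 10.92 and 11.20, against 9.29 and 9.31 (1.76 ± 0.14, adjusted p = 2.6e-06).

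Genes of the TGF-beta pathway were split, with 10 of 23 lower, 5 higher and 8 not called (median -0.31). Several inhibitors that the pathway induces on itself were lower. Skil, which represses SMAD target genes, read 8.49 and 8.13 at day 5, against 10.02 and 10.10 at day 0 (-1.75 ± 0.14, adjusted p = 2.14e-06). Tgif1, a SMAD corepressor, fell 2.30-fold, Ldlrad4, which limits SMAD activation, 2.93-fold, Pmepa1, another such inhibitor, 1.98-fold, and Smad7, the inhibitory SMAD, 1.57-fold. Among ligands, Tgfb3 fell 1.78-fold while Tgfb2 rose 3.38-fold and Inhbb 16.3-fold. Tgfbi, a secreted adhesion protein named for its induction by TGF-beta, went against the falls, with 11.11 and 11.20 at day 5 and 9.68 and 9.37 at day 0 (1.63 ± 0.18, adjusted p = 3.38e-05). Smad3 and Smad4, the signal transducers, were not called (adjusted p = 0.812 and 0.199).

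Of 25 BMP pathway genes, 10 were higher and 4 lower (median 0.14). Among the Id genes, which BMP signals induce and which block basic helix-loop-helix factors, Id1 read 12.08 and 12.01 at day 5, against 9.79 and 9.97 at day 0 (2.16 ± 0.12, adjusted p = 1.36e-07), Id2 rose 2.54-fold and Id3 2.29-fold. Id4 was 1.36-fold higher, but its probe sets differed in sign and the call was lost without day 5 replicate 1 or either day 0 array and after median scaling. Of the ligands, Gdf10 read 9.97 and 9.88, against 6.90 and 6.88 (3.04 ± 0.16, adjusted p = 7.15e-08), and Bmp2 and Bmp6 rose 31.9-fold and 3.52-fold. Bmp4 was 1.32-fold lower, a call lost without either day 5 array or without day 0 replicate 1. Bmp5 was also called lower but lay under the filter level on all 4 arrays, so no fold is given, and Bmp7 and Gdf5 were not called (adjusted p = 0.175 and 0.214). Grem1, a secreted BMP antagonist, rose 2.01-fold and Twsg1, a BMP-binding protein, 2.14-fold. The receptors Bmpr1a and Bmpr2 and the transducers Smad1 and Smad5 were not called (adjusted p = 0.93, 0.545, 0.943 and 0.393). On unscaled values the median of the list was -0.06, where the median of all genes was -0.21.

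Wnt/beta-catenin targets and feedback genes rose, with 14 of 23 higher, 4 lower and 5 not called, a median of 0.90, and 11 raised at least 2-fold. The rises include inhibitors that the pathway induces on itself. Axin2, a scaffold that promotes beta-catenin degradation, read 9.00 and 8.73 at day 5, against 5.77 and 5.83 at day 0 (3.07 ± 0.13, adjusted p = 1.57e-08). Notum, which removes the lipid of Wnt proteins, read 9.15 and 9.22, against 5.94 and 6.07 (3.17 ± 0.14, adjusted p = 2.35e-08). Apcdd1, a membrane inhibitor of Wnt, rose 6.17-fold, Nkd1, an inhibitor of Dishevelled, 3.39-fold, Wif1, a secreted inhibitor, 3.47-fold, and Dkk2 2.07-fold. Sp5, a zinc finger repressor, read 7.08 and 7.46, against 5.08 and 4.90 (2.28 ± 0.14, adjusted p = 2.92e-07), with both day 0 arrays under the filter level. For Axin2, Notum and Sp5, both day 0 arrays were dim and neither came near a day 5 array. These genes were named among the rises, so the gap is not evidence about them.

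The TCF/LEF motif CTTTGAT was searched on both strands in the same kind of window. It lay in 2 of the 22 windows of 16 Wnt list genes (9.09%), against 2.66% of the windows of genes tested and 3.73% of all windows. In genes raised at least 2-fold it lay in 3.81% of windows, and in genes lowered at least 2-fold in 2.82%. As with the CArG box, these counts describe letters and not binding, and the list was itself drawn up as Wnt targets. The windows of Sp5 and Tnfrsf19 are shown because both genes rose and hold it. They lie at chr2:70474673-70474972 on the plus strand for Sp5, with the motif 104 bases before the start, and at chr14:61037938-61038237 on the minus strand for Tnfrsf19, 202 bases before the start, where the capitals are the motif's reverse complement.
Sp5: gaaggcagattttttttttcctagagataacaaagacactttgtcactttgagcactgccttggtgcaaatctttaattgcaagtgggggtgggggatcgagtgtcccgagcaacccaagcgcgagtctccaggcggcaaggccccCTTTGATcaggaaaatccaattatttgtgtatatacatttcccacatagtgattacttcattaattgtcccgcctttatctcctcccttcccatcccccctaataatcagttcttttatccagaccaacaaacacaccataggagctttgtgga
Tnfrsf19: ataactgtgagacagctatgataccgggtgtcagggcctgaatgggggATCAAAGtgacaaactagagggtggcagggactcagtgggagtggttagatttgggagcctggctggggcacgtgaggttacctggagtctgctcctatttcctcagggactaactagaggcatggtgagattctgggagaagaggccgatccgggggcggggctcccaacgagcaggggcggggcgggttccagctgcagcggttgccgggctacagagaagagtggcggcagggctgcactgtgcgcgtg

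Other members of the list were lower or not called. Ccn4, a secreted CCN protein, read 8.54 and 8.53 at day 5, against 11.10 and 11.17 at day 0 (-2.60 ± 0.14, adjusted p = 9.66e-08), Cd44 fell 2.05-fold and Myc 1.66-fold. Ccnd1, cyclin D1, was not called (0.31 ± 0.20, adjusted p = 0.292), nor was Lef1 (0.47 ± 0.17, adjusted p = 0.065). Among 39 Wnt ligands, receptors and secreted inhibitors, 13 were higher and 4 lower, with a median of 0.06 (-0.10 on unscaled values). Wnt4, a ligand of kidney and gonad mesenchyme, read 10.39 and 10.34, against 7.18 and 6.94 (3.31 ± 0.18, adjusted p = 8.85e-08), and Sfrp2, a secreted Frizzled-related protein, read 10.84 and 10.83, against 7.68 and 7.68 (3.16 ± 0.13, adjusted p = 1.57e-08). Wnt2 rose 4.53-fold. The R-spondins, which amplify Wnt signals, went apart, with Rspo1 2.31-fold higher and Rspo2 5.26-fold lower.

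Matrix genes moved in both directions. Of 33 collagen genes, 9 were higher and 11 lower, with a median of -0.11. The type VI chains, which form beaded microfilaments around cells, rose together. Col6a2 read 12.48 and 12.53 at day 5, against 10.25 and 9.94 at day 0 (2.41 ± 0.20, adjusted p = 2.7e-06), Col6a1 rose 3.31-fold and Col6a3 2.54-fold. Col18a1, a basement membrane collagen and the source of endostatin, had the largest rise of the list, with 11.28 and 11.39 against 7.45 and 7.63 (3.80 ± 0.17, adjusted p = 1.75e-08). Among the lower chains, Col2a1, the main cartilage collagen, fell 5.04-fold, beside Col11a1, and Col5a1 and Col5a2, which start collagen fibrils, fell 2.13-fold and 1.82-fold. A list of small leucine-rich and other matrix proteoglycans with hyaluronan genes was split as well, with 7 of 21 higher and 8 lower. Dcn, decorin, read 13.12 and 13.14, against 10.42 and 10.07 (2.88 ± 0.13, adjusted p = 1.75e-08), in the direction of its relative Lum, and Kera, keratocan, rose 4.53-fold, while Bgn, biglycan, read 11.96 and 11.88, against 13.63 and 13.47 (-1.63 ± 0.18, adjusted p = 3.38e-05).

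Enzymes that fold and cross-link collagen were lower in 10 of 15 cases and higher in 1 (median -0.67). With Lox, its relative Loxl4 fell 3.67-fold. P4ha1 and P4ha2, which hydroxylate proline in procollagen, fell 2.16-fold and 2.07-fold, and Pcolce2, which assists procollagen cleavage, fell 3.25-fold. Tgm2, transglutaminase 2, was the member that rose (1.92-fold). Elastic fibre and matricellular genes were lower in 15 of 33 cases and higher in 6 (median -0.39). Thbs1, thrombospondin 1, which activates latent TGF-beta, read 11.12 and 10.85 at day 5, against 13.11 and 13.12 at day 0 (-2.13 ± 0.20, adjusted p = 8.21e-06), whereas its paralog Thbs2 read 12.17 and 11.99, against 10.76 and 10.63 (1.38 ± 0.16, adjusted p = 3.89e-05). The CCN family and the fibulins were also split. Ccn5 fell 4.12-fold with Ccn2 and Ccn4, and Ccn3 rose 3.67-fold. Fbln1 rose 5.07-fold while Fbln2 and Fbln5 fell.

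Among 49 matrix proteases and inhibitors, 14 were higher and 9 lower (9 and 11 on unscaled values), with a median of 0.05. Beside Mmp3, Mmp10, a second stromelysin, rose 4.22-fold, with 8.49 and 7.63 at day 5 against 5.96 and 6.01 at day 0. Adamts15, an aggrecan-cleaving protease, rose 7.84-fold and Mmp2, gelatinase A, 2.34-fold, while Adamts5, another aggrecanase, fell 4.58-fold. Plaur, the urokinase receptor, fell 2.88-fold and Timp1, an inhibitor of metalloproteinases, 1.90-fold. Of 19 integrin genes, 6 were lower and 3 higher, a total of 9 that was 5 without day 0 replicate 1. The subunits of the main fibronectin receptor were both lower, Itgb1 2.56-fold, with 10.43 and 10.38 against 11.75 and 11.78, and Itga5 2.48-fold.

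**Figure D3:**
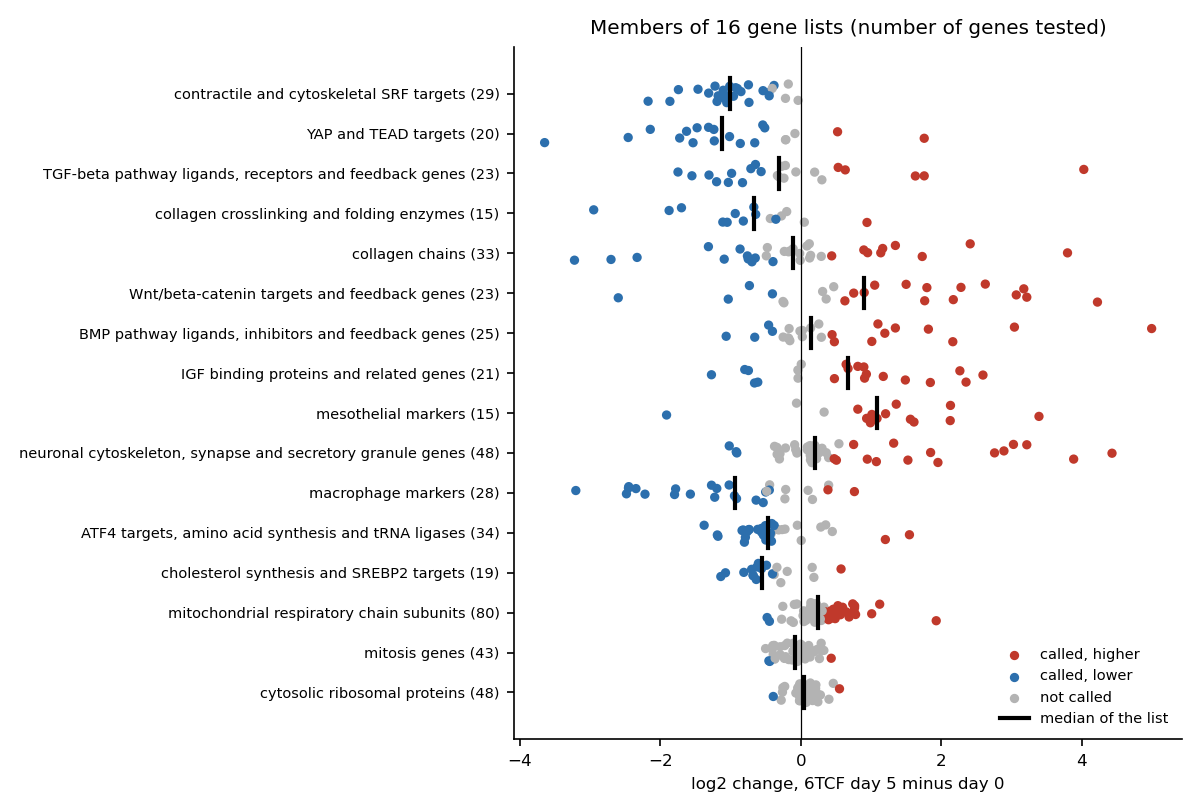
Log2 change between 6TCF day 5 and day 0 of each tested member of 16 gene lists (points, red and blue where called higher and lower, grey where not called), with the list's median as a black bar. Contractile genes lie left of 0 (median -1.01), Wnt/beta-catenin targets mostly right of it (median 0.90), and ribosomal proteins close to it (median 0.04, and -0.10 on unscaled values).

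Genes of the IGF system, which control the supply of insulin-like growth factors to cells, were higher in 13 of 21 cases and lower in 5 (median 0.67). Binding proteins led the rises. Igfbp3, the main carrier in serum, read 12.12 and 12.20 at day 5, against 9.53 and 9.61 at day 0 (2.59 ± 0.14, adjusted p = 7.35e-08), Igfbp4 rose 4.80-fold, Igfbp5 3.59-fold and Igfbp2 2.80-fold. Igfbp7, a relative with weak IGF binding, fell 2.42-fold. The mRNA-binding proteins Igf2bp3 and Igf2bp1, which are expressed in the embryo, fell 1.68-fold and 1.74-fold.

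Of 34 growth factor ligands, a list that shares members with that of the IGF system, 14 were higher and 9 lower. Hbegf, an EGF family ligand, read 8.31 and 7.34 at day 5, against 10.33 and 10.51 at day 0 (-2.59 ± 0.24, adjusted p = 7.12e-06), the largest fall of the list. Fgf7, a fibroblast-made signal to epithelium, fell 2.45-fold, Pdgfa 2.07-fold and Pdgfd 3.25-fold. Angptl4, a secreted inhibitor of lipoprotein lipase, read 10.64 and 10.50, against 6.95 and 7.14 (3.52 ± 0.13, adjusted p = 5.42e-09), Mdk, midkine, rose 2.72-fold and Kitl, the ligand of KIT, 2.28-fold. The PDGF receptors moved in opposite directions. Pdgfra read 11.99 and 12.03, against 9.94 and 9.70 (2.19 ± 0.20, adjusted p = 6.51e-06), and Pdgfrb read 9.21 and 9.51, against 10.86 and 10.91 (-1.53 ± 0.17, adjusted p = 3.59e-05). Of 33 receptor genes, 9 were higher and 7 lower (4 and 8 on unscaled values). Immediate early and ERK feedback genes were lower in 10 of 28 cases and higher in 4 (median 0.10, and -0.11 on unscaled values). Egr1, which serum induces within minutes through SRF and ternary complex factors, fell 5.97-fold, with 8.70 and 8.33 against 11.06 and 11.12, and Klf2 and Klf4 fell 2.75-fold and 2.30-fold. Dusp6 and Spred1, feedback inhibitors of ERK signalling, were higher, by 2.48-fold and 2.56-fold.

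CREB target genes, which cyclic AMP induces, were higher in 8 of 22 cases and lower in 3 (median 0.23). Penk, proenkephalin, the precursor of opioid peptides, read 11.11 and 11.17 at day 5, against 7.73 and 7.65 at day 0 (3.45 ± 0.11, adjusted p = 2.13e-09). Ppargc1a, the coactivator PGC-1alpha, rose 6.20-fold, Gem, a small GTPase, 3.03-fold and Rgs2, a regulator of G protein signalling, 2.03-fold. Scg2, the granule protein secretogranin II, read 6.44 and 6.44, against 4.92 and 4.92 (1.52 ± 0.21, adjusted p = 0.000194), with both day 0 arrays under the filter level. The full CRE palindrome TGACGTCA lay in 3 of the 26 windows of 16 list genes (11.5%). It lay in 2.78% of the windows of genes tested and 1.79% of all windows. Among genes changed at least 2-fold it lay in 1.63% of the windows of raised and 1.76% of those of lowered genes. These counts too describe letters and not binding, and the list was itself drawn up as CREB targets. The Scg2 window, at chr1:79439977-79440276 on the minus strand, is shown because the gene rose and carries the palindrome 68 bases before the start, here in capitals.
Scg2: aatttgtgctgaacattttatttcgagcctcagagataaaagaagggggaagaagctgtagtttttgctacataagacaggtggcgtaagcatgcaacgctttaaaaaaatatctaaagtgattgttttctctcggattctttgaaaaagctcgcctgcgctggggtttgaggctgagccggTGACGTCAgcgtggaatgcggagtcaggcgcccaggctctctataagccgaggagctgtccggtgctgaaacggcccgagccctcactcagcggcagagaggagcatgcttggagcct

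Among 38 genes of cyclic AMP synthesis, breakdown and effect, 8 were higher and 3 lower (2 and 5 on unscaled values), a total of 11 that was 7 without either day 5 array, 5 without the first array of day 0 and 6 without its second. The called share of this list, 28.9%, was close to the 27.7% of all genes. Adcy2, an adenylyl cyclase, rose 4.63-fold, and Akap12, a scaffold for protein kinase A, fell 2.80-fold. Prostaglandin, steroid and nuclear receptor genes were higher in 10 of 35 cases and lower in 3 (median 0.08, and -0.02 on unscaled values). Ptges, the inducible prostaglandin E synthase, read 10.12 and 9.72 at day 5, against 7.44 and 7.58 at day 0 (2.41 ± 0.16, adjusted p = 3.81e-07). Among receptors for prostaglandins, the rises were of Ptger2 3.59-fold, Ptgfr 3.63-fold and Ptgir 3.81-fold.

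Of 29 fibroblast surface and identity genes, 12 were higher and 10 lower (median -0.18). Thy1, a surface glycoprotein of fibroblasts, read 12.63 and 12.74 at day 5, against 11.42 and 11.27 at day 0 (1.34 ± 0.14, adjusted p = 1.77e-05). Pdpn, podoplanin, rose 2.24-fold, Cd34 3.23-fold and Dpp4 3.13-fold, and S100a4 and Postn, periostin, fell 1.96-fold and 1.89-fold. Fap, fibroblast activation protein, was not called (0.21 ± 0.15, adjusted p = 0.357). Mesenchymal transcription factors were higher in 16 of 48 cases and lower in 9 (13 and 14 on unscaled values). Twist1 read 10.28 and 10.31, against 8.85 and 8.74, a 2.83-fold rise (adjusted p = 4.9e-06), Twist2 rose 2.89-fold, Tbx2 5.00-fold and Gli2, a Hedgehog effector, 3.10-fold, while Foxc1 and Foxp1 fell 2.50-fold and 2.85-fold.

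Genes best known from neurons and neural progenitors were raised in part. Of 48 genes of neuronal cytoskeleton, synapse and secretory granules, 15 were higher, 3 lower and 30 not called (median 0.20). Beside Gria1 and Nefl, Gap43, a growth cone protein, read 11.51 and 11.24 at day 5, against 8.56 and 8.41 at day 0 (2.89 ± 0.15, adjusted p = 6.63e-08), Nefm, the medium neurofilament, rose 6.77-fold, and Nrcam, an axonal adhesion protein that is also on the Wnt target list, 9.30-fold. Nptx1, a synaptic pentraxin, rose 8.15-fold. Among 32 neural progenitor, glial and neurogenic genes, 12 were higher and 4 lower, a total of 16 that was 10 without day 0 replicate 2 (median 0.15, and -0.0008 on unscaled values). Sox2, a factor of neural and pluripotent cells, read 8.15 and 7.86, against 5.27 and 5.03 (2.85 ± 0.22, adjusted p = 1.57e-06), Tfap2b rose 4.79-fold, Isl1 3.45-fold and S100b, a glial calcium-binding protein, 3.12-fold. Hes1, a target of Notch, fell 2.56-fold. Of 116 ion channel genes, 20 were higher and 9 lower, a called share close to and below the 27.7% of all genes (median 0.06, and -0.07 on unscaled values). Kcnj8, a subunit of ATP-sensitive potassium channels, rose 6.62-fold and Scn3b, a sodium channel beta subunit, 3.93-fold. Sema5a, a semaphorin, rose 7.47-fold and Nrp1, a semaphorin and VEGF co-receptor, fell 2.86-fold.

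Mesothelial markers, genes of the lining of the body cavities, were higher in 12 of 15 cases and lower in 1 (median 1.08). Wt1 read 8.84 and 9.24 at day 5, against 6.89 and 6.94 at day 0 (2.13 ± 0.18, adjusted p = 4.35e-06). The keratins on the list rose with it, Krt18 4.38-fold, with 10.42 and 10.35 against 8.35 and 8.16, Krt8 3.05-fold and Krt19 1.91-fold. Podxl, podocalyxin, rose 10.5-fold, Upk3b, a uroplakin, 2.56-fold and Bnc1, basonuclin, 2.95-fold. Msln, mesothelin, itself a defining surface marker, was the member that fell, with 6.58 and 6.36 against 8.54 and 8.23 (-1.91 ± 0.14, adjusted p = 1.35e-06), a call that was lost when the day 0 arrays of 6TCF and SGCF were pooled. The summed intensity of the 15 markers was 9987 and 9943 at day 5, against 4456 and 4090 at day 0, and 0 of them lay under the filter. In bulk samples, more cells of a type and more RNA per cell cannot be told apart. Simple epithelial and junction genes were higher in 10 of 27 cases and lower in 7 (8 and 10 on unscaled values). Dsp, desmoplakin, rose 3.24-fold and St14, the protease matriptase, 2.34-fold, while the desmosomal Pkp2 fell 2.52-fold.

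Retinoid metabolism and binding genes were higher in 10 of 32 cases and lower in 2 (median 0.10, and -0.06 on unscaled values). Crabp1, which binds retinoic acid in the cytoplasm, was bright on all 4 arrays, with 13.79 and 13.95 at day 5 against 12.34 and 12.15 at day 0 (1.63 ± 0.14, adjusted p = 3.84e-06). Rdh10, which makes retinaldehyde, rose 5.02-fold, Dhrs3, which reduces it back to retinol, 3.07-fold, and Rarb, a retinoic acid receptor, 5.49-fold, with 9.19 and 9.18 against 6.68 and 6.78. Rbp4, the retinol carrier, rose 4.51-fold and Cyp26a1, which degrades retinoic acid, 3.04-fold. Of 16 endoderm and liver genes, 6 were higher and 1 lower. Apoe read 9.83 and 10.06, against 8.22 and 8.04 (1.81 ± 0.12, adjusted p = 5.88e-07), Gata6 rose 2.88-fold and Foxa2 2.45-fold, while Alb, albumin, stayed dim, with 5.83 and 6.65 against 4.84 and 4.92.

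Macrophage markers were lower in 19 of 28 cases and higher in 2 (median -0.93). C1qa, a complement C1q chain made by macrophages, read 4.87 and 5.14 at day 5, against 7.62 and 7.30 at day 0 (-2.45 ± 0.14, adjusted p = 1.26e-07), with both day 5 arrays under the filter level. C1qb fell 4.66-fold and Mpeg1, perforin-2, 5.60-fold. Lyz1 and Lyz2, near-identical lysozymes whose probe sets may share signal, fell 5.09-fold and 5.49-fold. Cd14, the lipopolysaccharide co-receptor, was one of the rises (1.70-fold), a call also lost with pooled day 0 arrays. Csf1r, the CSF-1 receptor, was not called (0.16 ± 0.13, adjusted p = 0.416). The summed intensity of all 30 markers on the array was 2294 and 2502 at day 5, against 8163 and 7752 at day 0, and Itgam and Cd163 lay under the filter. How much of the fall of genes that macrophages share with fibroblasts, such as Ctss, follows those cells was not tested. Sums for other cell types were 1331 and 1289, against 1075 and 990.9, for 20 endothelial markers, with Pecam1, Tek, Tie1 and Vwf under the filter. Of the 16 tested endothelial markers, 5 were higher, 3 lower and 8 not called (median 0.10, and -0.03 on unscaled values). For 14 pericyte and smooth muscle markers the sums were 12780 and 11120, against 23040 and 22830. Of these markers 5, Acta2 among them, also stand on the contractile list. The other 9 summed to 2468 and 2050, against 1255 and 1337. Of the 12 tested, 3 were higher, Kcnj8 with the largest rise, and 7 lower. For 21 cartilage and bone markers the sums were 698 and 672.3, against 1857 and 1796, with 9 under the filter, among them Acan and Alpl. Of the 12 tested cartilage and bone markers, 1 was higher, 4 were lower and 7 not called (median -0.22). For 13 keratinocyte markers the sums were 1246 and 1216, against 879.2 and 903.5, with Krt1, Krt16, Krt17 and Flg under the filter. Of the 9 tested keratinocyte markers, 1 was higher and 8 were not called. The part of these cells in the results was not tested.

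Of 51 chemokine and cytokine genes, 14 were higher and 8 lower, a total of 22 that was 14 without day 0 replicate 2. Beside Ccl8, Tnfsf9, a costimulatory ligand, read 10.60 and 10.01 at day 5, against 6.91 and 6.97 at day 0 (3.36 ± 0.21, adjusted p = 3.22e-07), and Il33, a nuclear alarmin, rose by 2.81 ± 0.16 on the log2 scale. Cxcl12, the ligand of CXCR4, read 9.52 and 9.62, against 11.74 and 11.66 (-2.13 ± 0.19, adjusted p = 5.01e-06). Il6 was not called (0.24 ± 0.22, adjusted p = 0.473). Complement and acute-phase genes were higher in 11 of 20 cases and lower in 3 (median 0.64). Saa3, an acute-phase serum amyloid, read 9.59 and 9.81, against 6.19 and 5.68 (3.76 ± 0.25, adjusted p = 4.17e-07), and Lbp, which binds lipopolysaccharide, rose 3.21-fold, while Ptx3, a pentraxin, fell 3.70-fold.

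Of 43 mitosis genes, 1 was higher, 2 were lower and 40 were not called, with a median of -0.09, while 12 were lower on unscaled values. All 3 calls were lost when day 5 replicate 2 or either day 0 array was left out. Cks2, a cofactor of CDKs, read 11.46 and 11.42 at day 5, against 11.29 and 11.37 at day 0 (0.11 ± 0.16, adjusted p = 0.665). CDK inhibitors, cyclins and p53 targets were higher in 9 of 35 cases and lower in 4 (median 0.26, and -0.02 on unscaled values). Cdkn1c, p57, an imprinted inhibitor of cell growth, read 11.50 and 11.56, against 9.53 and 9.49 (2.02 ± 0.11, adjusted p = 1.11e-07), and Cdkn2a, which encodes p16 and p19ARF, read 11.97 and 11.81, against 10.10 and 10.03 (1.83 ± 0.13, adjusted p = 9.01e-07). Cdkn2b, p15, rose 2.01-fold and Cdkn2c, p18, 1.92-fold, while Cdkn1a, p21, was not called (0.34 ± 0.15, adjusted p = 0.128). Other imprinted genes of fetal growth rose with Cdkn1c, Mest 3.39-fold, Dlk1 3.03-fold and Plagl1 2.67-fold. The imprinted list as a whole had 8 higher and 5 lower of 23 (5 and 8 on unscaled values), a total of 13 that was 7 without day 0 replicate 2. Of 16 pluripotency genes, 2 were higher and 2 lower, which is close to the background. The higher ones were Sox2 and Tfcp2l1, a transcription factor of embryonic stem cells that rose 1.51-fold and lost its call without either day 0 array, without day 5 replicate 1 and on unscaled values. The lower ones were Klf2 and Klf4, and Esrrb was not called (adjusted p = 0.685).

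Genes of amino acid synthesis and transfer RNA charging, many of them targets of the stress factor ATF4, were lower in 22 of 34 cases and higher in 2 (median -0.46). The total of 24 was 15 without the second day 5 array, and 14 and 13 without the first and the second day 0 array. Asns, asparagine synthetase, read 9.66 and 9.51 at day 5, against 10.97 and 10.96 at day 0 (-1.38 ± 0.15, adjusted p = 2.19e-05), Chac1, a glutathione-degrading enzyme, fell 2.27-fold, Nupr1 2.28-fold and Ddit3, CHOP, 1.79-fold. Slc7a11, the cystine transporter, was one of the rises (2.92-fold). Cholesterol synthesis genes and SREBP2 targets were lower in 12 of 19 cases and higher in 1 (median -0.56), a total of 13 that was 8 without day 5 replicate 1 or day 0 replicate 1. Msmo1, a sterol oxidase, fell 1.76-fold and Hmgcs1, which makes HMG-CoA, 1.60-fold, with 11.34 and 11.51 against 12.18 and 12.03.

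Glycolysis and hypoxia genes were split, with 7 of 32 higher and 12 lower, a total of 19 that was 11 without day 0 replicate 2. Aldoc, the brain aldolase, rose 4.04-fold and Egln3, a hypoxia-induced prolyl hydroxylase, 2.86-fold, while Pfkl, a phosphofructokinase, fell 2.08-fold and Pgam1 1.60-fold. Of 80 respiratory chain subunits, 28 were higher and 2 lower (median 0.24). That total of 30 was 19 without day 5 replicate 1, 16 and 14 without day 0 replicates 1 and 2, 14 after median scaling, and 5 on unscaled values, where the median was -0.04. Cox6b2, a cytochrome oxidase subunit best known from testis, rose 3.80-fold, with 9.93 and 10.09 at day 5 against 8.18 and 7.99 at day 0, and Cox7a1, a muscle isoform, 2.18-fold. Of 48 cytosolic ribosomal proteins, 1 was higher, 1 lower and 46 were not called (median 0.04, and -0.10 on unscaled values).

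Metallothioneins, which bind zinc and copper, rose. Mt2 read 12.95 and 12.90 at day 5, against 10.33 and 10.06 at day 0 (2.73 ± 0.12, adjusted p = 1.75e-08), Mt1 rose 2.95-fold and Mt3 5.55-fold. Nfe2l2, the antioxidant factor NRF2, rose 2.38-fold and Mgst1, a membrane glutathione transferase, 2.64-fold, and the list of NRF2 targets and metallothioneins held 10 higher and 3 lower of 38 (median 0.10, and -0.14 on unscaled values). Of 12 carbonic anhydrases, 5 were higher and 7 were not called. Car2, a cytosolic isoform, read 8.63 and 8.73, against 5.67 and 5.58 (3.06 ± 0.11, adjusted p = 4.24e-09), beside Car3. Of 207 solute carriers, 37 were higher and 23 lower (17 and 31 on unscaled values), a total of 60 that was 38 and 39 without day 0 replicates 1 and 2. The called share of solute carriers, 29.0%, was close to the 27.7% of all genes. Slc7a8, an amino acid exchanger, rose by 2.14 on the log2 scale and Slc16a11, of the monocarboxylate transporter family, 5.59-fold. Slc6a15, a neutral amino acid transporter, fell 4.16-fold.

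The arm went on to day 10. Lum averaged 12.54 at day 10, Inhbb 11.82, Axin2 8.81 and Wt1 9.79, and Ccn2 averaged 9.42. Ccl8 averaged 12.08 on day 10 and Saa3 12.66, both above their day 5 arrays, and Sox2 averaged 6.47 and Nefl 7.63, both below theirs. The change between day 5 and day 10 was not tested here.

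Next, the 30 leading genes of 6TCF were set against their change from day 0 to day 5 in SGCF. This nearest counterpart has its own day 0 arrays. All 15 leading rises were also called higher and all 15 leading falls called lower in SGCF. The share of all genes called in SGCF was not counted, so these counts are descriptions without a background. The difference between the changes was called for 13 of the 30 genes, against 8.98% of all genes tested, and for 8 genes without either day 0 array of 6TCF. The genes were chosen on the 6TCF change, which enters the difference, so that share is a description. Ccl8 rose by 4.13 ± 0.22 in 6TCF and by 1.04 ± 0.22 in SGCF on the log2 scale (difference 3.09 ± 0.32, adjusted p = 0.000108). Gria1 rose by 4.43 ± 0.15 in 6TCF and by 1.82 ± 0.15 in SGCF (difference 2.61 ± 0.21, adjusted p = 1.94e-05), and Lum by 5.20 ± 0.15 and 2.78 ± 0.15 (difference 2.42 ± 0.22, adjusted p = 3.46e-05). Amph, Car3, Agtr2, Inhbb and Tnfrsf19 also rose more in 6TCF. Bmp2 and Mmp3 rose less in 6TCF than in SGCF, Bmp2 by 5.00 ± 0.26 against 6.55 ± 0.26 (adjusted p = 0.0181) and Mmp3 by 4.06 ± 0.16 against 5.39 ± 0.16 (adjusted p = 0.00269). Aspn, Lox and Fbln5 fell less in 6TCF, as in Lox with a change of -2.95 ± 0.18 in 6TCF and -4.11 ± 0.18 in SGCF (adjusted p = 0.0137). For Lratd1, Cadps and Ccn2 the difference was not called (-0.07 ± 0.18, -0.03 ± 0.18 and -0.30 ± 0.19). Array brightness coincided with the arm, with medians of 102.4 to 142 in 6TCF and 60.86 to 86.23 in SGCF, so a batch and the arm cannot be told apart.

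**Figure D4:**
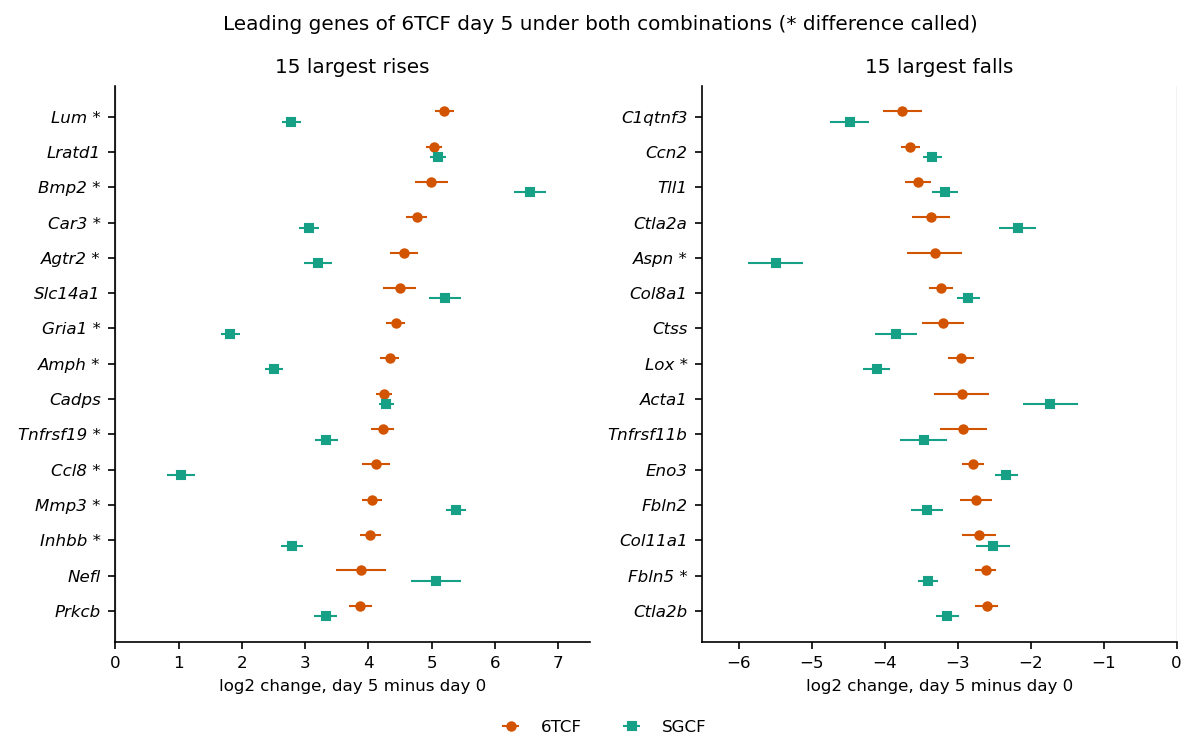
Log2 change from day 0 to day 5 of the 30 leading genes in 6TCF (circles) and SGCF (squares), with SE as bars and an asterisk where the difference was called. The SGCF change of Ccl8 (1.04) and Gria1 (1.82) is well short of the 6TCF change, while Lratd1 and Cadps nearly coincide.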

How the data were processed

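Total RNA was hybridised to Affymetrix Mouse Genome 430A 2.0 arrays, 2 per group. The authors deposited 1 table of linear intensity per probe set, and the submitters' processing notes name RMA, MAS5 and limma without versions. The deposited intensity ran from 3.971 to 27193, on all 12 arrays.

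Values were taken as log2(intensity + 16) and quantile normalized. Of 22690 probe sets, 64 were controls, 20380 had 1 gene symbol, 691 several and 1555 none, and only those with 1 symbol were used. The brightest probe set stood for a gene. Genes whose highest group mean passed the 25th percentile (5.25) were tested, 10674 of 12393. limma 3.58.1 in R 4.3.3 fitted the 6 group means on all 12 arrays (6 residual degrees of freedom), with Benjamini-Hochberg adjustment, and was tested on simulated data. With 2 arrays a group, precision is limited by their number.

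The members and the 62 gene lists were chosen with earlier results of these data known. Genes named are the 15 largest rises and falls with non-overlapping arrays, and in each list up to 6 rises, 6 falls and 3 bright uncalled genes, or any member of the Wnt, TGF-beta, BMP, contractile, fibroblast, CDK inhibitor and pluripotency lists. In all, 15 alternatives were tried.

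Of 110 genes named here with several probe sets, 6 had probe sets of differing sign (Id4, and the uncalled Bmpr1a, Smad1, Smad4, Smad5 and Esrrb). For 26 the smallest change was under 0.25 of the largest. Rises among them were Tnfrsf19, Axin2, Podxl, Angptl4, Mt1, Mgst1, Scn3b, Dsp, Tgm2, Aldoc, Dpp4, Igfbp4, Ptgfr, Twsg1 and Tfcp2l1. Falls were Lox, Itgb1, Igfbp7, Axl, Foxp1, Pkp2, Gadd45b, Lyz1, Loxl4 and Tnfrsf11b, and Csf1r was uncalled. The log2 changes ran from 0.06 to 4.22 for Tnfrsf19 and from 0.04 to 3.39 for Podxl.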

Additional observations from a re-analysis of the deposited data

Results flagged for a closer look

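The change by day 5 differed between 6TCF and SGCF for 13 of the 30 leading genes. The test was limma's on the difference itself, adjusted over all genes, where 8.98% of all genes tested were called. The 30 genes were chosen on the 6TCF change, which enters the difference, so their share is a description. Values are the 6TCF change minus the SGCF change on the log2 scale. Rises that were larger in 6TCF gave 2.423 for Lum, 1.701 for Car3, 1.366 for Agtr2, 2.614 for Gria1, 1.828 for Amph, 0.8883 for Tnfrsf19, 3.09 for Ccl8 and 1.237 for Inhbb. Rises that were smaller in 6TCF gave -1.557 for Bmp2 and -1.332 for Mmp3. Falls that were smaller in 6TCF gave 2.175 for Aspn, 1.16 for Lox and 0.7911 for Fbln5. Each arm has its own day 0 arrays, and the arms' arrays differed in brightness as described above, so batch and arm cannot be told apart.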

How the results depend on the processing

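The count of 2958 called genes was 1759 to 2393 when 1 of the 4 arrays was left out, in which case the lone array is assumed to vary like the other groups, and 2654 to 3603 under the other alternatives. Of the 838 genes changed at least 2-fold, 540 passed with a pseudocount of 64, which by construction compresses the change of dim genes. The other alternatives gave 727 to 1062. On unscaled values 779 of the calls were lost and 4 changed sign, and with the mean of all probe sets 14 changed sign. With the day 0 arrays of 6TCF and SGCF pooled, 633 calls were lost and 7 changed sign. Members of gene lists called numbered 782, and 551 to 654 with 1 array left out. The 13 called differences between 6TCF and SGCF became 8 to 12 with 1 array of 6TCF left out and 10 to 14 otherwise. Among genes named above as not called, Lef1 passed under 5 alternatives, Cdkn1a and Bmp7 with pooled day 0 arrays, and Vim and Bmp7 with the mean of all probe sets. Arrays share replicate numbers across days, but day 5 and day 0 arrays of the same number did not deviate together (r = -0.023 across genes). With the replicate block 2654 genes were called and 13 differences, and 348 calls were lost. The number of arrays, and for genes dim on either day the background, limit what can be seen.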
